A study of Caenorhabditis elegans with 17 samples.

Results

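The 4 RNA-dependent RNA polymerases (RdRPs) of Caenorhabditis elegans are encoded by rrf-1, rrf-2, rrf-3 and ego-1, and the small RNAs that map to the transcripts of these 4 genes are described here. The genes were found by their gene identifiers among 20535 protein-coding genes, and the reads of all transcripts of a gene were summed. This took 3 transcripts for rrf-1, of which 2 are protein-coding and 1 is non-coding, and 1 transcript for each of the other genes.

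Small RNAs were sequenced from 17 libraries of whole animals grown at 20°C, with 1 library per condition, so no difference below has a replicate check. Total small RNA from L3 larvae came from N2 wild type, from dis-3(ust56), exos-1(ust57) and eri-1(mg366) mutants, and from the eri-1(mg366) background with dis-3(ust56), with exos-1(ust57), with exos-10(ok2269), or with dis-3(ust56), rrf-1(pk1417) and rrf-2(ok210) together. RNA bound to the Argonaute NRDE-3 was recovered on anti-FLAG beads from L3 larvae that express FLAG- and GFP-tagged NRDE-3. All 5 NRDE-3 strains carried eri-1(mg366), the control with no further mutation and the others with dis-3(ust56), exos-1(ust57), exos-10(ok2269), or dis-3(ust56), rrf-1(pk1417) and rrf-2(ok210). The last 4 libraries were total small RNA from young adult eri-1(mg366) animals on the empty vector L4440 or on double-stranded RNA against fib-1, nol-56 or mtr-4. DIS-3, EXOS-1 and EXOS-10 are subunits of the RNA exosome, ERI-1 is an exonuclease that limits RNAi, FIB-1 and NOL-56 are nucleolar proteins of rRNA modification, and MTR-4 is a helicase that works with the exosome.

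An RdRP copies an RNA template into complementary RNA, so a gene that serves as a template gives antisense small RNAs. RRF-1 and EGO-1 make 22G-RNAs, the secondary siRNAs of the worm, RRF-1 mainly in somatic tissue and EGO-1 mainly in the germline. RRF-3 acts with Dicer in the ERI complex to make 26G-RNAs, and RRF-2 was used in the study together with RRF-1 as an RdRP of antisense ribosomal siRNAs. NRDE-3 binds 22G-RNAs in somatic cells and carries them into the nucleus. Antisense reads on a gene are therefore read as its endogenous siRNAs, and sense reads are described apart from them. In whole animals, fewer cells of a type and less RNA per cell cannot be told apart.

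In the WBcel235 assembly, rrf-1 (WBGene00004508) lies on the minus strand of chromosome I from 7643431 to 7649777, with 20 exons and a longest transcript of 5024 nt. Its neighbour ego-1 (WBGene00001214) lies on the same strand from 7650341 to 7656338, with 15 exons and 5291 nt, and 563 bases separate the 2 genes. The gene rrf-2 (WBGene00004509) also lies on the minus strand of chromosome I, from 12098664 to 12106112, with 21 exons and 4844 nt. The gene rrf-3 (WBGene00004510) lies on the plus strand of chromosome II from 8162465 to 8168651, with 15 exons and 5530 nt. Its annotation overlaps that of T05C12.11, on the opposite strand, by 37 bases. The sequence shared by these related genes was not analysed here, so reads that could map to more than 1 of them were counted as the authors' mapping placed them.

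The libraries held 5094172 to 17155933 reads assigned to transcripts. Antisense levels are given in RPM, reads per 1000000 of the study's normalization number, from which reads in the sense direction of rRNA and protein-coding genes are left out. This number ran from 145736, for dis-3 in NRDE-3, to 6803553 in N2. Sense levels are given in sense RPM, per 1000000 sense protein-coding reads, of which there were 313106 to 5130564. A count of 3 reads, taken as the floor, equals 0.441 to 20.6 RPM antisense and 0.585 to 9.58 sense RPM sense. The summed sense level of 6 vitellogenin genes, which adults express, was 3.29 to 38.3 sense RPM in L3 total RNA and 36838 to 72123 in the young adult RNAi libraries. At most 4 of the 6 were at 0 in an L3 total library. In the NRDE-3 libraries, labelled L3, the same level ran from 16.7 in dis-3 to 1900 in the control and 2613 in exos-10. The summed level of 10 germline genes was 193 to 406 sense RPM in L3 total RNA, 418 to 1418 in NRDE-3 and 717 to 2966 in the RNAi libraries, and at most 1 of these 10 genes was at 0 in a library. Sense reads of exos-1 numbered 2 in exos-1 beside 10 in N2, and 1 in eri-1;exos-1 beside 2 in eri-1, which are too few to check the latter label. Among NRDE-3-associated RNA labelled exos-1(ust57) they numbered 70, or 18.3 sense RPM beside 20.1 in the control.

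The libraries that carry rrf-1(pk1417) and rrf-2(ok210) were compared first with the libraries of the same kind that differ by these mutations alone, eri-1;dis-3 in both cases. A gene was called where either library had at least 10 reads, the ratio passed 2-fold and its exact 95% interval left out 1. In total small RNA, sense reads of rrf-1 numbered 51 in eri-1;dis-3 and 13 in eri-1;dis-3;rrf-1;rrf-2, or 84.7 and 24.4 sense RPM. The ratio was 0.288 (0.144 to 0.538), and 3.62% of 7782 protein-coding genes were called lower in this comparison. For rrf-2, sense reads numbered 25 and 1, or 41.5 and 1.88 sense RPM, a ratio of 0.0453 (0.0011 to 0.277). In NRDE-3, sense reads of rrf-1 numbered 68 and 12, or 81.3 and 4.95 sense RPM, and those of rrf-2 numbered 29 and 18, or 34.7 and 7.42 sense RPM. These ratios were 0.0609 (0.0300 to 0.113) for rrf-1 and 0.214 (0.112 to 0.399) for rrf-2, where 11.3% of 10500 genes were called lower. Sense reads of both mutated genes thus fell in both libraries that carry the mutations, with a remainder of 1 to 18 reads per gene. The labels name the alleles but not the sequence that they change. The part of changed or missing sequence in the reads of rrf-1 and rrf-2, sense and antisense, was not tested. In total small RNA, sense reads of rrf-3 numbered 18 and 30 and those of ego-1 numbered 9 and 16, and the ratios of 1.89 (1.02 to 3.59) and 2.01 (0.837 to 5.17) were not called, where 6.09% of genes were called higher.

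Antisense reads fell on rrf-2, and by RPM were not called on rrf-1. On rrf-2 they numbered 61 in eri-1;dis-3 and 7 with the rrf-1 and rrf-2 mutations in total small RNA, or 15.7 and 1.88 RPM, and the ratio was 0.119 (0.046 to 0.261) where 5.35% of 3926 genes were called lower. In NRDE-3 they numbered 27 and 1, or 185 and 1.41 RPM, and the ratio was 0.0076 (0.00019 to 0.0462) where 6.67% of 4319 genes were called lower. Against the other 3 RdRP genes, the odds of an antisense read to lie on rrf-2 were 0.0978 times (0.0365 to 0.224) and 0.0057 times (0.00013 to 0.0379) those in eri-1;dis-3. On rrf-1, antisense reads numbered 36 and 21 in total small RNA, or 9.30 and 5.64 RPM, and the ratio of 0.606 (0.336 to 1.07) was not called. In NRDE-3 they numbered 8 and 15, or 54.9 and 21.2 RPM, and the ratio of 0.385 (0.153 to 1.05) was not called either. The reads left on rrf-1 lay on both protein-coding isoforms, 9 on isoform a and 9 on isoform b in total small RNA and 4 and 11 in NRDE-3. A loss of antisense reads on rrf-1 down to 0.336 times or 0.153 times the level of eri-1;dis-3 lies within these intervals, so depth limits what can be said of rrf-1. Scaled to the median gene, antisense rrf-1 was called lower in both, at 0.438 (0.243 to 0.770) and 0.312 (0.124 to 0.851). In total small RNA the intervals with all reads (0.526), miRNA reads (0.538) and antisense protein-coding reads (0.535) left out 1 without passing 2-fold, and in NRDE-3 the ratio with all reads was 1.27 (0.506 to 3.46).

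**Figure D1:**
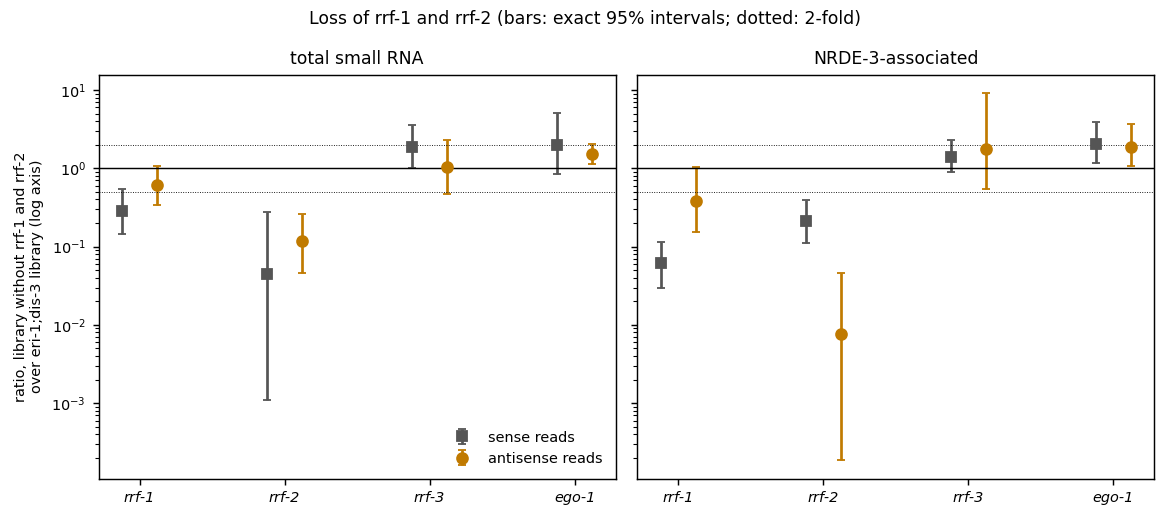
Ratio of reads per gene in the library with rrf-1(pk1417) and rrf-2(ok210) over the eri-1;dis-3 library (log axis) for sense reads (squares) and antisense reads (circles), in total small RNA (left) and NRDE-3 (right). Bars are exact 95% intervals for counting error. The rrf-2 points lie below 1 on both strands in both panels, down to 0.0076 for antisense reads in NRDE-3, while the antisense intervals of rrf-1 and rrf-3 include 1.

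The same 2 libraries were also set beside all 15 others. The eri-1;dis-3 libraries are among these 15, so this is not an independent check of the matched comparison. The antisense level of rrf-2 was 1.88 and 1.41 RPM in the 2 libraries with the mutations and 7.37 to 645 RPM, with a median of 65.2, in the other 15. These ranges do not overlap, and 0.286% of 7332 genes had both libraries below all others on the antisense strand. Sense reads of rrf-2 (1.88 and 7.42 against 11.2 to 227 sense RPM) and of rrf-1 (24.4 and 4.95 against 55.9 to 201 sense RPM) did not overlap either, where 0.325% of 11678 genes had both libraries below. This comparison was added after the counts were seen and took genes with a mean of at least 10 reads per library. Antisense rrf-2, with 7 reads and 1 read in the 2 libraries, reached that mean through the other 15. The shares of genes with both libraries below rest on the same minimum. The antisense level of rrf-1 did overlap, at 5.64 and 21.2 RPM against 9.30 to 113 RPM. The level of rrf-3 and of ego-1 overlapped on both strands.

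By RPM, antisense levels of the 2 RdRP genes that were not mutated were not called. Antisense reads on rrf-3, the RdRP of the ERI complex, numbered 15 in both total libraries, or 3.87 and 4.03 RPM, a ratio of 1.04 (0.474 to 2.28). In NRDE-3 they numbered 3 and 26, or 20.6 and 36.7 RPM, a ratio of 1.78 (0.546 to 9.19). Antisense reads on ego-1, the germline RdRP, numbered 82 and 121 in total small RNA, or 21.2 and 32.5 RPM, and 13 and 120 in NRDE-3, or 89.2 and 169 RPM. The ratios of 1.53 (1.15 to 2.06) and 1.90 (1.07 to 3.67) did not pass 2-fold, while the median of all genes was 0.47 and 0.30 on the log2 scale. In NRDE-3 this depended on the denominator. With all reads, ego-1 was called higher at 6.26 (3.53 to 12.1) and rrf-3 at 5.88 (1.80 to 30.3), and ego-1 was also called with sense miRNA reads (2.00) and with antisense protein-coding reads (2.04). Sense reads of ego-1 in NRDE-3 numbered 14 and 84, or 16.7 and 34.7 sense RPM, a ratio of 2.07 (1.17 to 3.95) where 30.4% of genes were called higher, and those of rrf-3 were not called. The ego-1 call was lost with 3 of the other denominators, at ratios from 1.23 to 1.35. Germline genes summed to 513 and 418 sense RPM and vitellogenin genes to 16.7 and 112 sense RPM in these NRDE-3 libraries. Germline genes summed to 202 and 276 sense RPM in the total libraries, and the part of either in the ego-1 values was not tested.

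The share of each gene among the antisense reads of all 4 genes does not depend on any denominator, and this measure was added after the counts were seen. In total small RNA, rrf-2 took 31.4% of 194 reads in eri-1;dis-3 (exact interval 25.0 to 38.5) and 4.27% of 164 reads with the mutations (1.73 to 8.60). In NRDE-3 it took 52.9% of 51 reads (38.5 to 67.1) and 0.617% of 162 reads (0.0156 to 3.39). The share of ego-1 was 42.3% and 73.8% in total small RNA and 25.5% and 74.1% in NRDE-3. Since rrf-2 is one of the 4 genes, its loss alone raises the share of the others, and the share of ego-1 is given with no test. With rrf-1 and rrf-2 mutated, the odds of ego-1 in NRDE-3 were 1.02 times (0.601 to 1.72) those in total small RNA.

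The other genes of these pathways were counted with the same rule. Of the 17 genes listed for 22G-RNA synthesis, 16 were matched by name and 12 had enough antisense reads in each loss comparison. Called higher in total small RNA were the Dicer-related helicase gene drh-3, from 25 to 55 reads at a ratio of 2.29 (1.40 to 3.83), and elli-1, from 13 to 28 reads at 2.24 (1.12 to 4.71). In NRDE-3, elli-1 went from 1 to 34 reads at 6.99 (1.17 to 284). No antisense level of the 22G list was called lower in either comparison. Of the 10 genes listed for the ERI and 26G-RNA pathway, 6 had enough antisense reads in each comparison. Called higher were eri-1 in total small RNA, from 6 to 18 reads at 3.12 (1.19 to 9.60), and eri-6 in NRDE-3, from 22 to 327 reads at 3.06 (1.98 to 4.94), and none was called lower. Genes called higher were 16.4% of all genes in total small RNA and 12.2% in NRDE-3, so 2 of 12 and 1 of 6, and 1 of 12 and 1 of 6, were near the background. The list medians on the log2 scale were 0.58 and 0.48 in total small RNA beside 0.47 for all genes, and 0.50 and 0.12 in NRDE-3 beside 0.30.

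On the sense strand, members of both lists were called lower together with rrf-1 and rrf-2 in NRDE-3. These were 6 of 16 tested genes of the 22G list and 2 of 10 of the ERI list, where 11.3% of all genes were called lower. The list ratios are given with sense protein-coding reads as the only denominator. These were 836206 of 7485478 reads in dis-3 and 2424406 of 11036220 with the rrf-1 and rrf-2 mutations, so the calls can depend on it. The genes called lower included drh-3, from 445 to 201 reads at a ratio of 0.156 (0.131 to 0.184), the nucleotidyltransferase gene mut-2 at 0.130 (0.0768 to 0.213), the nuclease gene rde-8 at 0.151 (0.0984 to 0.227) and the scaffold gene mut-16 at 0.394 (0.298 to 0.522). Also lower were mut-7 at 0.407, smut-1 at 0.271, the Dicer gene dcr-1 at 0.243 (0.215 to 0.275) and eri-7 at 0.402. The genes nyn-1, from 2 to 24 reads at 4.14 (1.03 to 36.1), and eri-5, from 6 to 61 reads at 3.51 (1.52 to 9.93), were called higher. The same genes were not lower in these libraries alone. Against the NRDE-3 control, 7 of 16 genes of the 22G list were called lower in exos-1, where 14.5% of all genes were. In exos-10, 4 of 16 were, beside 9.88% of all genes. In exos-1 and exos-10, drh-3 was at 0.104 and 0.185, mut-2 at 0.317 and 0.332, smut-1 at 0.0949 and 0.147, and mut-16 at 0.315 and 0.325. In dis-3, the reference of the loss comparison, rde-8 and dcr-1 were called higher than in the NRDE-3 control, at 2.43 and 2.40. They were the only members of their lists called higher there, where 7.62% of all genes were. Called lower in dis-3 were 5 of 16 genes of the 22G list and 2 of 10 of the ERI list, beside 24.9% of all genes. In total small RNA, rde-8 alone among both lists was called on the sense strand, from 10 reads to 1 read at a ratio of 0.113 (0.0026 to 0.796).

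Antisense reads above the floor of 3 were found on each of the 4 RdRP genes in 15 of 17 libraries. The exceptions were rrf-2 with 1 read in NRDE-3 with the rrf-1 and rrf-2 mutations, and rrf-3 with 3 reads in NRDE-3 of dis-3. In N2, antisense reads numbered 224 on rrf-1, 100 on rrf-2, 73 on rrf-3 and 332 on ego-1, or 32.9, 14.7, 10.7 and 48.8 RPM. Per kb of the longest transcript, these levels stood at percentiles 93.4, 85.5, 79.0 and 95.4 among the 20231 protein-coding genes with a length. Antisense reads were the larger part of the reads of each gene in N2, 77.0% for rrf-1, 80.0% for rrf-2, 78.5% for rrf-3 and 93.0% for ego-1.

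**Figure D2:**
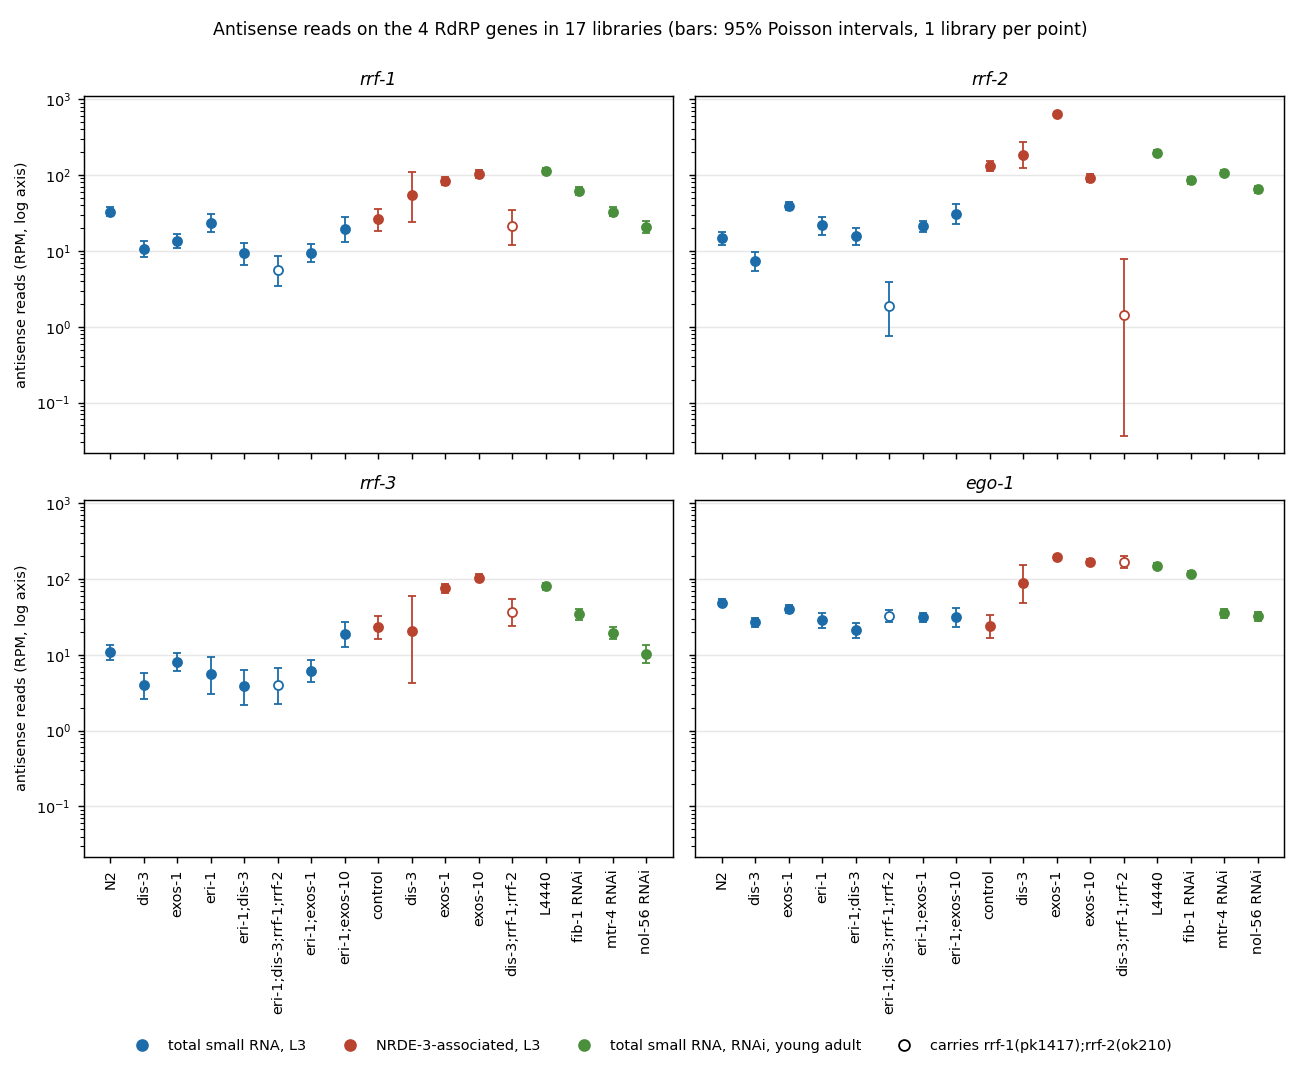
Antisense level (RPM, log axis) of each RdRP gene in each of the 17 libraries, with 95% Poisson intervals for counting error. Blue marks total small RNA of L3 larvae, red NRDE-3-associated RNA and green total small RNA of young adults on RNAi, and open circles carry rrf-1(pk1417) and rrf-2(ok210). The open circles of rrf-2, at 1.88 and 1.41 RPM, lie below its other points (7.37 to 645 RPM), and ego-1 has the highest lower end, at 21.2 RPM.

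Per kb, ego-1 had the highest antisense level of the 4 genes in 9 of 17 libraries and rrf-2 in the other 8, while rrf-3 had the lowest in 14. The order was not the same in all kinds of library. In L3 total small RNA, ego-1 was first in 6 of 8 libraries, and rrf-2 was first in exos-1 and eri-1;exos-10, where its interval overlapped that of ego-1. In N2 the order was ego-1, rrf-1, rrf-2 and rrf-3, with no overlap of neighbours. In eri-1, the intervals of ego-1, rrf-1 and rrf-2 overlapped in turn, and only rrf-3 was set apart, at 14 reads and 5.50 RPM. In NRDE-3, rrf-2 was first in the control, dis-3 and exos-1 libraries, with overlap of its interval and that of ego-1 in dis-3. In the RNAi libraries, rrf-2 was first on L4440, mtr-4 and nol-56, and ego-1 on fib-1, without overlap of the first and second gene in any of them.

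The levels across the total libraries of L3 larvae were compared in 6 pairs, of which 3 share N2 and 3 share eri-1 as the control. In eri-1 against N2, none of the 4 antisense ratios was called by RPM, at 0.717, 1.47, 0.513 and 0.588 for rrf-1, rrf-2, rrf-3 and ego-1, where 26.8% of genes were called in either direction. With all reads, rrf-3 (0.359) and ego-1 (0.412) were called lower, with antisense protein-coding reads rrf-3 (0.480) was, and with miRNA reads rrf-1 (0.395), rrf-3 (0.283) and ego-1 (0.324) were while rrf-2 turned to 0.811. The antisense level of rrf-1, the somatic RdRP, was 32.9 RPM in N2, 10.6 in dis-3 and 13.6 in exos-1. It was 23.6 RPM in eri-1, 9.30 in eri-1;dis-3, 9.47 in eri-1;exos-1 and 19.4 in eri-1;exos-10. The dis-3 and exos-1 libraries thus lay below their controls in both backgrounds. The ratios were 0.322 (0.243 to 0.422) and 0.413 (0.320 to 0.529) against N2, and 0.394 (0.253 to 0.606) and 0.401 (0.276 to 0.584) against eri-1, while eri-1;exos-10 was not called at 0.821 (0.511 to 1.29). Genes called lower were 33.2% of all genes in dis-3, 13.3% in exos-1, 36.4% in eri-1;dis-3 and 25.5% in eri-1;exos-1, so a lower level was common in these libraries.

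Against the other 3 RdRP genes of the same library, the odds of an antisense read to lie on rrf-1 were also lower in these 4 pairs. The odds ratios were 0.629 (0.457 to 0.861) in dis-3 and 0.350 (0.264 to 0.462) in exos-1, and 0.540 (0.326 to 0.885) in eri-1;dis-3 and 0.386 (0.251 to 0.591) in eri-1;exos-1. Scaled to the median gene, the ratios of rrf-1 became 0.536, 0.39, 0.692 and 0.50, and with antisense protein-coding reads as the denominator they became 0.384, 0.333, 0.685 and 0.783. The interval of eri-1;dis-3 included 1 under both, and that of eri-1;exos-1 under the latter. In eri-1;exos-1, none of the 4 genes was called lower with all reads, sense miRNA reads or antisense protein-coding reads. In dis-3, exos-1 and eri-1;dis-3, calls of a lower level remained with all reads and with sense miRNA reads. In eri-1;exos-10, which was not called by RPM, the odds ratio of rrf-1 was also below 1, at 0.564 (0.329 to 0.953). Its ratio to eri-1 was called lower with all reads, at 0.401 (0.25 to 0.632). It was 0.5 (0.311 to 0.787) when scaled to the median gene, and not called. With sense miRNA reads (0.82) or antisense protein-coding reads (0.722) the interval of eri-1;exos-10 included 1.

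The antisense level of rrf-2 was 14.7 RPM in N2, 7.37 in dis-3 and 39.5 in exos-1, where reads rose from 100 to 267. The ratio of exos-1 to N2 was 2.69 (2.13 to 3.41), where 22.1% of genes were called higher, and it stayed between 2.17 and 2.65 under the other denominators. The odds of rrf-2 against the other 3 genes rose 4.01-fold (3.07 to 5.27). In the eri-1 background the levels were 21.6 RPM in eri-1, 15.7 in eri-1;dis-3, 21.0 in eri-1;exos-1 and 31.0 in eri-1;exos-10, and none of these ratios was called. The ratio of eri-1;exos-1 to eri-1 was 0.970 by RPM but 1.40 with all reads, 1.89 with antisense protein-coding reads and 2.01 (1.46 to 2.81, called) with miRNA reads, so the difference from the N2 background depends on the denominator. Antisense reads on rrf-3 were called lower in dis-3, from 73 to 27 reads at 0.371 (0.229 to 0.584), where 33.2% of genes were called lower. Scaled to the median gene, none of the 4 RdRP genes was called in dis-3 against N2. In eri-1;exos-10, rrf-3 was called higher, from 14 to 29 reads at 3.40 (1.74 to 6.97), where 38% of genes were called higher. The ratio of eri-1;exos-10 was 1.66 with all reads as the denominator, and its interval then included 1. Antisense reads on ego-1 were called by RPM in none of the 6 pairs, with ratios from 0.546 to 1.10. With sense miRNA reads, ego-1 was called lower in eri-1 and in dis-3 against N2, and higher in eri-1;exos-1. It was also called lower in eri-1 with all reads, and higher in eri-1;exos-1 with antisense protein-coding reads.

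**Figure D3:**
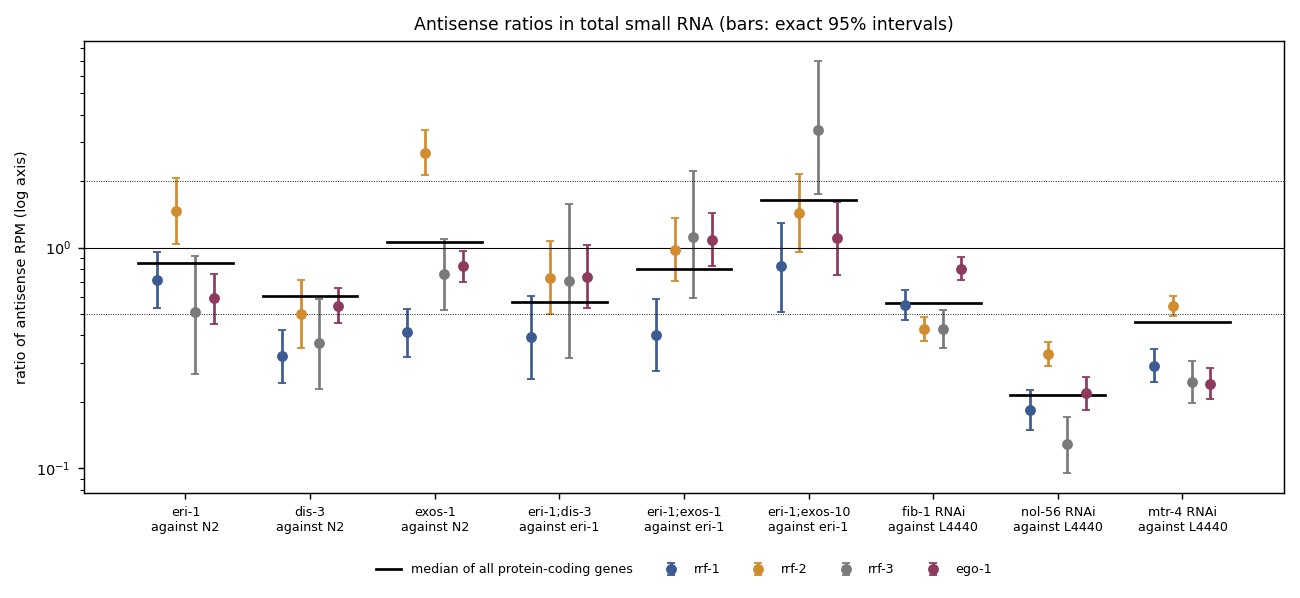
Ratio of the antisense RPM of each RdRP gene (log axis) in 6 pairs of L3 total libraries and 3 pairs of RNAi libraries, with exact 95% intervals. Black lines mark the median ratio of all protein-coding genes and dotted lines mark 2-fold. The rrf-2 point of exos-1 against N2 stands at 2.69 and the rrf-1 point at 0.413. In nol-56 RNAi all 4 genes lie below the lower dotted line, with rrf-2 (0.329) above the low median and rrf-3 (0.129) below it.

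Sense reads gave a different picture for rrf-2. In the eri-1 background they numbered 7 in eri-1, 25 in eri-1;dis-3, 43 in eri-1;exos-1 and 71 in eri-1;exos-10, or 11.2, 41.5, 70.8 and 227 sense RPM. Each exosome mutant library thus lay above eri-1, at ratios of 3.69 (1.55 to 10.1), 6.29 (2.81 to 16.6) and 20.2 (9.29 to 52.0). Genes called higher were 9.26%, 27.3% and 13.7% of all genes. With all reads as the denominator the ratios were 2.31, 3.57 and 8.14, with the normalization number they were 2.35, 2.46 and 16.7, and the interval of eri-1;dis-3 included 1 under both. The eri-1 library itself lay below N2, with 7 against 25 reads and a ratio of 0.350 (0.128 to 0.832), so these ratios rest on a control of 7 reads, and with all reads (0.525) or the normalization number (0.749) the interval of eri-1 against N2 included 1. Against N2, sense rrf-2 was not called in dis-3 at 1.15 (0.527 to 2.38) or in exos-1 at 1.54 (0.945 to 2.56), where 21.3% of genes were called in either direction and none of the 4 RdRP genes was.

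Sense reads of the other RdRP genes varied less over these libraries. Apart from the library with the mutations, rrf-1 lay between 77.1 and 128 sense RPM, rrf-3 between 14.8 and 37.0, and ego-1 between 9.25 and 41.5. Of 18 ratios, ego-1 in dis-3 against N2 was called, from 25 to 3 reads at 0.288 (0.0557 to 0.944), where 7.22% of genes were called lower. In eri-1;exos-10, antisense reads made up 40.3% of the reads on rrf-2, against 88.7% in eri-1 and 70.9% in eri-1;dis-3.

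**Figure D4:**
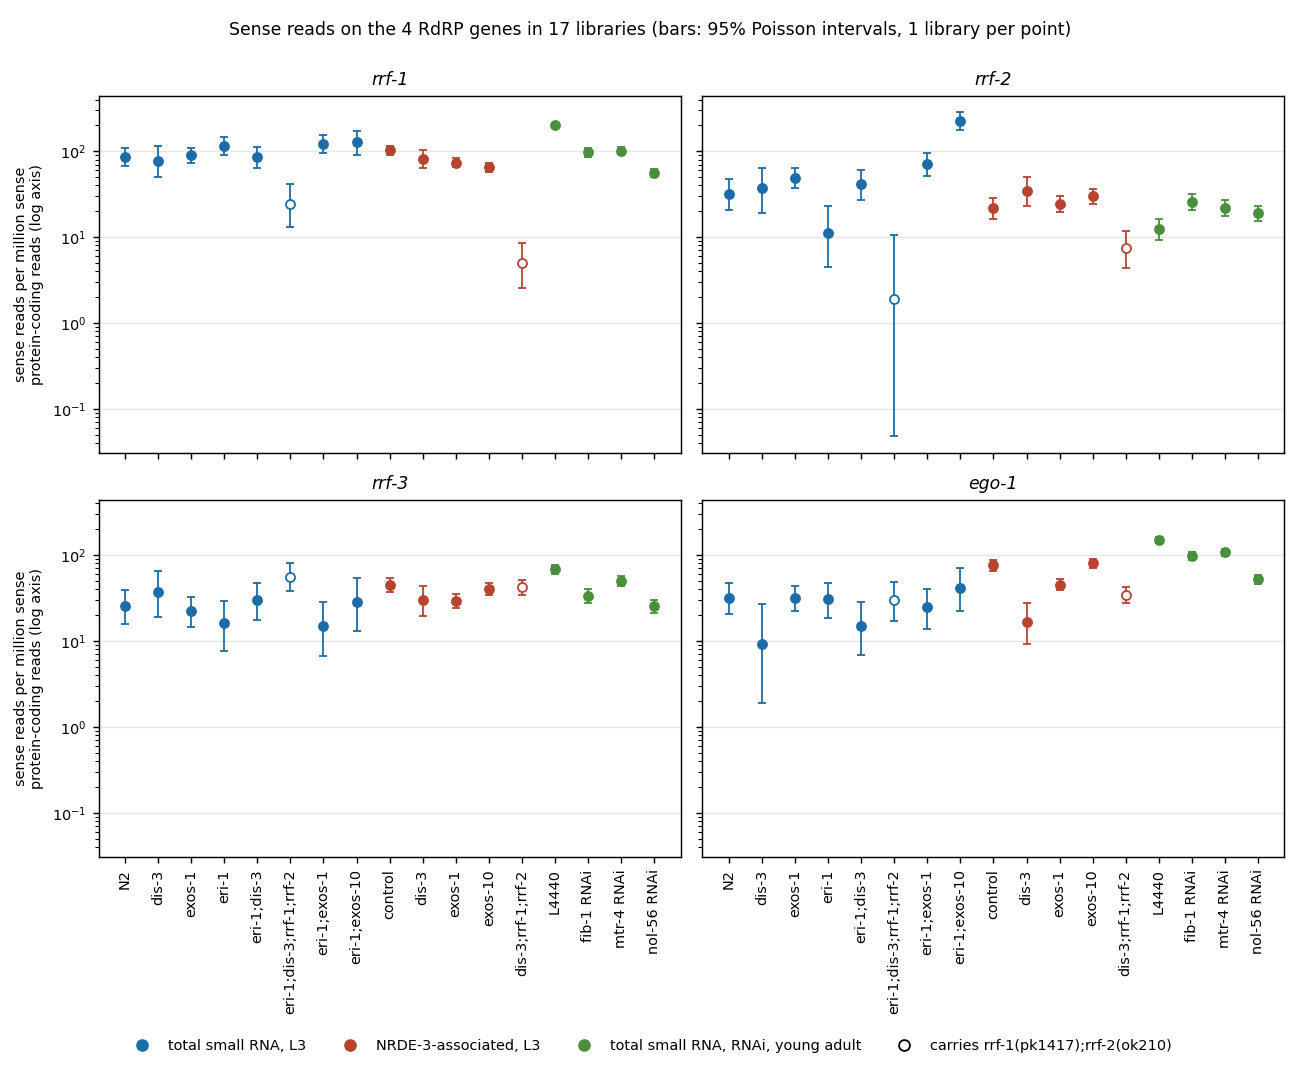
Sense level of each RdRP gene (reads per 1000000 sense protein-coding reads, log axis) in each of the 17 libraries, with 95% Poisson intervals and colours as for antisense reads. The open circles, which carry rrf-1(pk1417) and rrf-2(ok210), lie below all other points for rrf-1 (24.4 and 4.95) and rrf-2 (1.88 and 7.42). The highest rrf-2 point, at 227, is eri-1;exos-10.

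In the NRDE-3 libraries, the question was which RdRP genes supply siRNAs to this Argonaute. In the control, antisense reads numbered 37 on rrf-1, 187 on rrf-2, 33 on rrf-3 and 34 on ego-1, or 26.2, 132, 23.3 and 24.0 RPM. The level of rrf-2 stood at percentile 98.1 per kb among all genes, and its share of the 4 genes' antisense reads was 64.3% (58.5 to 69.8), against 27.2% (21.2 to 33.9) in total small RNA of eri-1. The odds of rrf-2 were higher in NRDE-3 than in total small RNA by 4.79-fold (3.19 to 7.26) in eri-1, 2.44-fold (1.25 to 4.83) in eri-1;dis-3 and 4.07-fold (3.26 to 5.11) in eri-1;exos-1. In eri-1;exos-10 they were lower, with an odds ratio of 0.539 (0.370 to 0.795). For ego-1 the odds ratios were 0.235 (0.143 to 0.378), 0.469 (0.215 to 0.968) and 0.282 (0.227 to 0.351) in the first 3 pairs and 1.24 (0.859 to 1.81) in eri-1;exos-10. A share can move because another gene moves, and the total libraries do not carry the tagged NRDE-3 by their labels. The paired libraries also differed in vitellogenin level, at 1900 sense RPM in NRDE-3 and 4.82 in total small RNA of eri-1. The levels were 321 and 3.29 in eri-1;exos-1, 2613 and 38.3 in eri-1;exos-10, and 16.7 and 13.3 in eri-1;dis-3. The part of this in the odds was not tested.

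Among NRDE-3-associated RNA, the library labelled exos-1(ust57) had the highest rrf-2 count, 1820 antisense reads or 645 RPM (616 to 676), a share of 64.7% (62.9 to 66.4). The dis-3 library had 27 reads on rrf-2 and 51 on all 4 genes, so its share of 52.9% has an interval of 38.5 to 67.1. The exos-10 library had 306 reads on rrf-1, 266 on rrf-2, 306 on rrf-3 and 498 on ego-1, and the share of rrf-2 was 19.3% (17.3 to 21.5). Against the control, the odds ratio of rrf-2 was 0.134 (0.10 to 0.177) in exos-10, 1.02 (0.783 to 1.32) in exos-1 and 0.627 (0.329 to 1.20) in dis-3. Among the 4 NRDE-3 libraries without the rrf-1 and rrf-2 mutations, exos-10 was the one in which rrf-2 did not take the largest share.

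**Figure D5:**
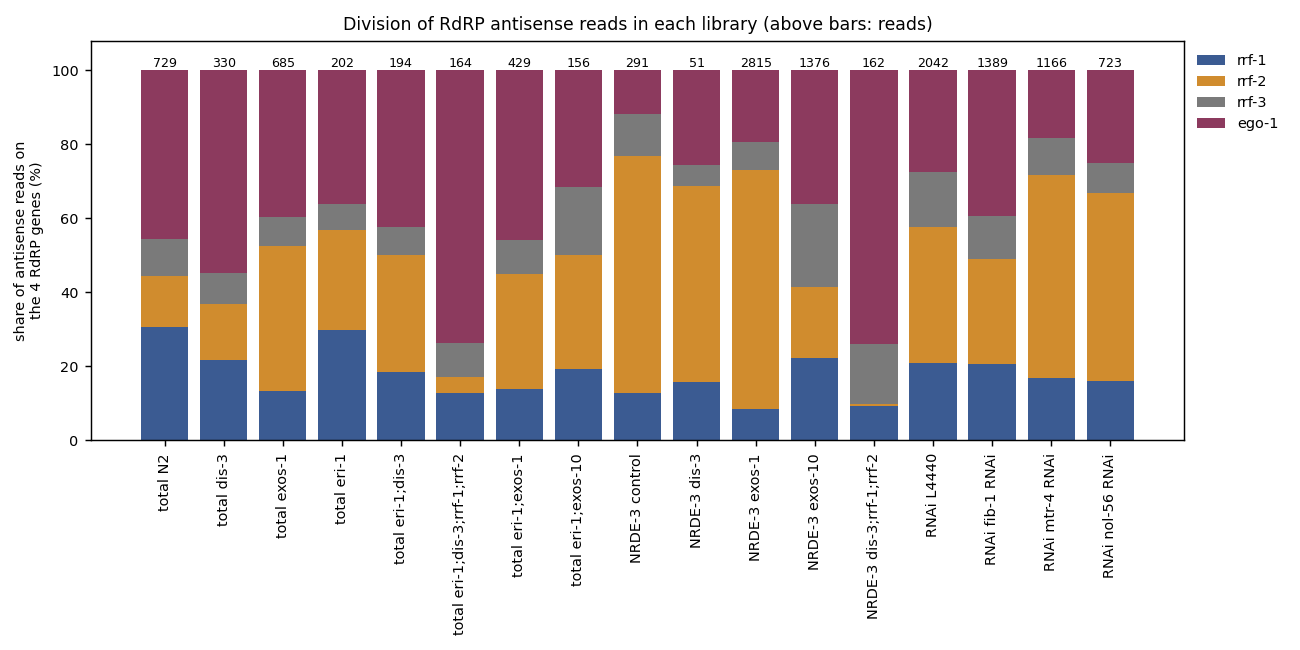
Share of each RdRP gene in the antisense reads of all 4 genes (%, stacked to 100) in each of the 17 libraries, with the number of reads above each bar. The rrf-2 segment is 64.3% and 64.7% in NRDE-3 of the control and of exos-1, 19.3% in NRDE-3 of exos-10, and 4.27% and 0.617% in the libraries with rrf-1(pk1417) and rrf-2(ok210), where ego-1 takes 73.8% and 74.1%.

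Levels in NRDE-3 depended on the denominator, and the normalization number was 1.95% of all reads in dis-3 and 14.8% in the control. Against the control and by RPM, 4 of 4 were called higher in exos-1, where 78.9% of all genes were, and 3 of 4 in exos-10, where 75.6% were. The exception in exos-10 was rrf-2, with 132 RPM in the control and 90.4 in exos-10. Scaled to the median gene, 0 of 4 were called in exos-1, and in exos-10 rrf-2 was called lower, at 0.147 (0.121 to 0.178). In dis-3, ego-1 alone was called higher by RPM, from 24.0 to 89.2, where 37.9% of all genes were, although its reads numbered 34 in the control and 13 in dis-3. With all reads the direction turned, and all 4 genes were called lower, ego-1 at 0.488 (0.236 to 0.948). With miRNA reads all 4 were called higher, and scaled to the median gene none was. Of 12 sense ratios, ego-1 in dis-3 was called, from 76.2 to 16.7 sense RPM, where 24.9% of genes were called lower, and none in exos-1 or exos-10, where 40.4% and 38.4% were called in either direction. Against total small RNA of the same mutant, NRDE-3 levels by RPM were called higher for rrf-2 and rrf-3 in eri-1, where 35.8% of genes were, and for rrf-1, rrf-2 and ego-1 in eri-1;dis-3, where 50.7% were. They were called higher for all 4 genes in eri-1;exos-1 and eri-1;exos-10, where 89.2% and 74.7% were. With the rrf-1 and rrf-2 mutations they were called higher for the 3 genes other than rrf-2, where 79.6% were, and rrf-2 had 1 and 7 reads. With all reads these calls stood in eri-1;exos-1 and eri-1;exos-10 but not in the others. In eri-1, rrf-2 was then 1.81 and rrf-3 1.26, and rrf-1 (0.329) and ego-1 (0.249) were called lower. In eri-1;dis-3 all 4 genes were called lower, at 0.167 to 0.466, and with the rrf-1 and rrf-2 mutations none was called. The dis-3 library had the smallest normalization number and the lowest vitellogenin level of the 5 NRDE-3 libraries, and the part of these in its values was not tested.

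In young adults on RNAi, each knockdown library was compared with L4440. On L4440, antisense reads numbered 428 on rrf-1, 752 on rrf-2, 303 on rrf-3 and 559 on ego-1, or 113, 198, 79.7 and 147 RPM. On nol-56 RNAi the levels were 20.8, 65.2, 10.3 and 32.1 RPM, on mtr-4 RNAi 32.9, 107.6, 19.6 and 35.6, and on fib-1 RNAi 61.9, 84.7, 34.2 and 118. All 12 levels lay below L4440, and 9 were called by RPM. These were all 4 genes on nol-56 RNAi, where 79.4% of all genes were called lower, rrf-1, rrf-3 and ego-1 on mtr-4 RNAi, where 52.7% were, and rrf-2 and rrf-3 on fib-1 RNAi, where 38.9% were. The lowest ratio was that of rrf-3 on nol-56 RNAi, 0.129 (0.0958 to 0.172). Scaled to the median gene, 0 of the 9 were called, and with antisense protein-coding reads 0 were called on fib-1 RNAi, 2 on nol-56 RNAi and 3 on mtr-4 RNAi. Scaled to the median gene, rrf-2 turned to 1.54 on nol-56 RNAi and 1.18 on mtr-4 RNAi, and ego-1 to 1.43 on fib-1 RNAi and 1.02 on nol-56 RNAi.

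The division among the 4 genes also differed between the RNAi libraries. The share of rrf-2 was 36.8% on L4440, 28.4% on fib-1, 55.0% on mtr-4 and 50.8% on nol-56, and the odds ratios to L4440 were 0.679 (0.584 to 0.789), 2.09 (1.80 to 2.43) and 1.77 (1.48 to 2.11). The share of ego-1 was 27.4% on L4440, 39.5% on fib-1, 18.2% on mtr-4 and 25.0% on nol-56. Sense reads on L4440 were highest for rrf-1, 910 reads or 201 sense RPM, and ego-1, 685 reads or 151 sense RPM. On nol-56 RNAi, rrf-1, rrf-3 and ego-1 were called lower, at ratios of 0.278, 0.373 and 0.349, where 26.7% of genes were. On fib-1 RNAi, rrf-1 and rrf-3 were called lower, at 0.482 and 0.495, and rrf-2 higher, from 56 to 87 reads at 2.09 (1.48 to 2.98), where 12.4% were lower and 23.3% higher. On mtr-4 RNAi none was called, where 35.7% were in either direction. Germline genes summed to 2966 sense RPM on L4440, 1880 on fib-1, 1615 on mtr-4 and 717 on nol-56, and the part of this in the RdRP levels was not tested.

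Last, the pattern of each gene over the 12 total small RNA libraries was compared with that of 7014 other protein-coding genes with a mean of at least 10 antisense reads, by the Pearson correlation of log2(RPM + 1). The 12 points share stages, backgrounds and normalization, and the median correlation with all genes was already 0.817 for rrf-1, 0.737 for rrf-2, 0.856 for rrf-3 and 0.779 for ego-1. The most similar genes were chin-1 (0.987), C35D10.1 and Y5F2A.4 for rrf-1, and smg-7 (0.954), larp-5 and prk-1 for rrf-2. For rrf-3 they were Y41E3.1 (0.993), ric-8 and cec-6, and for ego-1 they were eif-3.C (0.979), efl-1 and F18C12.3. None of the RdRP genes was among the 3 genes most similar to another. The correlations between 2 of them ran from 0.618, for rrf-2 and ego-1, to 0.913, for rrf-1 and rrf-3. Of the 7014 genes, 608 were more similar to rrf-1 than rrf-3 was, and 5445 were more similar to rrf-2 than ego-1 was. The 12 libraries include the one with rrf-1 and rrf-2 mutated, where antisense rrf-2 was at 1.88 RPM and ego-1 at 32.5 RPM. The part of this library in the correlations was not tested.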

How the data were processed

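Before deposit, the authors gel-purified small RNAs, sequenced 17 libraries, mapped clean reads of 18 to 30 nt with Bowtie2 under default settings to the genome and the transcriptome and deposited the raw read counts of each transcript, sense and antisense, without normalization. No column has a name in the files. Of the 2 count columns the first was read as sense, since 98.1% or more of all miRNA reads lie in it, and up to 3 empty cells in a library were set to 0.

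The RdRP genes were found by gene identifier in WBcel235 (Ensembl release 115), where 44848 of 45506 identifiers (98.6%) had an entry, because locus symbols stand on 59 of 30750 protein-coding rows. Reads on rrf-1 are divided between isoforms, and isoform b had more antisense reads than isoform a in 5 of 17 libraries. The normalization number is the reads counted on transcripts less those on rRNA and protein-coding genes in the sense direction. Ratios of 2 libraries have exact conditional binomial intervals, and shares, odds and levels have exact intervals, all at 95%. They cover counting error only, compare libraries and not conditions, and treat PCR reads as independent molecules. With 1 library per condition no count model and no p-value across genes was used. Shares of all genes called follow the same rule as the RdRP genes, interval included. The 19 comparisons gave 152 ratios of the 4 genes.

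The genes named are the 4 RdRP genes, the members called from lists of 17 genes of the 22G-RNA pathway and 10 of the ERI pathway in the loss comparisons, and the 3 genes most similar to each RdRP gene. The members, lists and tests were chosen with earlier results of these data known. Results were recomputed with 8 other settings, and with 1 more chosen after seeing the data (protein-coding transcripts only). Shares, odds, the comparison of both rrf-1;rrf-2 libraries with the other 15 and the comparison of backgrounds were also chosen after seeing the data. The intervals were run on simulated Poisson counts, the error that they assume, with no variation between libraries. That run checks the code and not how well the intervals cover differences between replicates. The computations used Python 3.11.15, numpy 2.4.6, pandas 2.3.3, scipy 1.17.1 and matplotlib 3.10.9.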

Additional observations from a re-analysis of the deposited data

Results flagged for a closer look

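The same mutation was compared in the N2 and the eri-1 backgrounds for dis-3 and exos-1, over 4 genes and both strands, which gave 16 ratios of ratios with exact intervals, and 2 intervals left out 1. Both belong to rrf-2 and exos-1. For sense reads the ratio of exos-1 to its control was 4.07 times as high in the eri-1 background as in N2 (1.53 to 12.2), with 7 and 43 reads in the former and 25 and 58 in the latter. With all reads, sense miRNA reads or the normalization number as the denominator it was 1.85, 2.20 or 1.05, and each of these intervals included 1. For antisense reads it was 0.361 times as high (0.241 to 0.545), with 55 and 133 reads in the eri-1 background and 100 and 267 in N2. With all reads it was 0.637 (0.424 to 0.961), and with sense miRNA reads (0.759) or antisense protein-coding reads (0.874) the interval included 1.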

How the results depend on the processing

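No paired analysis was possible because each condition has 1 library, and for the same reason no replicate could be left out. Of 728 recomputed values, 590 kept their direction and their side of the threshold, 44 lost it, 41 gained it, 20 reversed and 33 moved. The sense losses of rrf-1 and rrf-2 and the antisense loss of rrf-2 kept both under every setting run on these ratios. Sense rrf-1 was at 0.23 to 0.305 (total) and 0.0363 to 0.12 (NRDE-3), sense rrf-2 at 0.0361 to 0.0453 and 0.128 to 0.421, and antisense rrf-2 at 0.0861 to 0.119 and 0.00617 to 0.0251. The minimum of 30 reads was applied to counts of genes called and not to these ratios. Sense rrf-2, with 25 and 1 reads in total and 29 and 18 in NRDE-3, would not reach it. Neither would antisense rrf-2 in NRDE-3, with 27 and 1.

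The other values of the loss comparisons depended on the denominator. In total small RNA, sense rrf-3 was 1.5 with all reads, 1.54 with sense miRNA reads, 1.73 with the normalization number and 1.81 with the median of ratios, and each interval then included 1. Antisense rrf-1 was 0.526, 0.538, 0.535 (antisense protein-coding reads) and 0.438 in the same order, each interval leaving out 1, and antisense ego-1 was 1.33 with all reads and 1.11 with the median of ratios. In NRDE-3, sense rrf-3 was 2.77 and antisense rrf-3 5.88 with all reads, sense ego-1 was 1.30 with miRNA reads, 1.23 with the normalization number and 1.35 with the median of ratios, and antisense rrf-1 was 0.312 with the median of ratios. Antisense ego-1 was 6.26 with all reads, 2.00 with miRNA reads, 2.04 with antisense protein-coding reads and 1.54 with the median of ratios. On the transcript with the most reads, antisense rrf-1 was 0.137 in NRDE-3.

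The number of RdRP genes called by antisense reads also moved. With all reads it became 2 of 4, both lower, in eri-1 against N2, and 0 in eri-1;exos-1 against eri-1. It became 4, all lower, in dis-3 against the control in NRDE-3, and 0 in NRDE-3 over total with rrf-1 and rrf-2 mutated. With miRNA reads it became 3 lower in eri-1, 4 lower in dis-3 against N2 and 4 higher in dis-3 in NRDE-3. In eri-1;exos-1 it became 3 higher, where by RPM it was 1 lower. With antisense protein-coding reads it became 1 lower in eri-1, 0 in eri-1;dis-3 and 2 higher in eri-1;exos-1. In NRDE-3 it became 0 in dis-3 and 1 higher in exos-1, and on RNAi 0 on fib-1 and 2 lower on nol-56. In NRDE-3 over total it became 1 higher in eri-1;dis-3, 1 higher in eri-1;exos-1, 0 in eri-1;exos-10 and 0 with rrf-1 and rrf-2 mutated. With the median of ratios it became 0 in dis-3 against N2, eri-1;dis-3, fib-1, nol-56 and mtr-4 RNAi. In NRDE-3 it became 0 in dis-3, 0 in exos-1 and 1 lower in exos-10. In NRDE-3 over total it became 0 in eri-1;dis-3, 1 higher in eri-1;exos-1, 0 in eri-1;exos-10 and 1 lower with rrf-1 and rrf-2 mutated. A minimum of 30 reads gave 0 in eri-1;exos-10 against eri-1 and 1 in NRDE-3 over total with rrf-1 and rrf-2 mutated.

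The ratios of single genes that reversed are given here for the total and RNAi comparisons, followed by the antisense calls that turned in NRDE-3. Reversed with all reads were sense rrf-1 (0.597) and antisense rrf-2 (1.40) in eri-1;exos-1, and sense rrf-1 (0.446) and antisense ego-1 (0.538) in eri-1;exos-10. Reversed with miRNA reads were antisense rrf-2 in eri-1 against N2 (0.811) and in eri-1;exos-1 (2.01), sense rrf-2 (0.292) and rrf-3 (0.365) in dis-3 against N2, and sense rrf-2 on nol-56 (0.669) and mtr-4 RNAi (0.871). Reversed with antisense protein-coding reads or, for sense reads, the normalization number were sense ego-1 in eri-1 (2.03), sense rrf-2 in dis-3 (0.481), sense rrf-1 (0.412) and antisense rrf-2 (1.89) in eri-1;exos-1, and antisense ego-1 on fib-1 RNAi (1.11). Reversed with the median of ratios were antisense ego-1 in eri-1;exos-10 (0.671), on fib-1 (1.43) and on nol-56 RNAi (1.02), and antisense rrf-2 on nol-56 (1.54) and mtr-4 RNAi (1.18). In NRDE-3, called antisense ratios that turned into calls of the other direction were, with all reads, ego-1 in dis-3 against the control (0.488) and rrf-1 (0.234), rrf-2 (0.466) and ego-1 (0.167) in eri-1;dis-3 over total, and, with the median of ratios, rrf-1 over total with rrf-1 and rrf-2 mutated (0.484). With all reads, ego-1 in that last pair was 0.785 and not called. The cause of these differences was not tested. Depth limits antisense rrf-1 and rrf-3 in NRDE-3 of dis-3 (8 and 3 reads) and sense rrf-2 in eri-1 (7 reads).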
